A study of Mus musculus with 6 samples.

Results

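The genes described are 10 claudin and tight junction genes of the mouse, taken as a list by symbol: the claudins Cldn1, Cldn2, Cldn3, Cldn4, Cldn7, Cldn18 and Cldn23, the membrane proteins occludin (Ocln) and JAM-A (F11r), and the scaffold protein ZO-1 (Tjp1). They are 10 of 25528 genes in the count tables, and 9 of them, all but Cldn1, had enough reads to be among the 12593 genes tested. The RNA came from gastric corpus organoids, cultured in 3D, which are epithelial structures from the stomach region where acid is made. The organoids carried a construct for Erbb2 overexpression (3 libraries, Erbb2_OE_Corpus) or an empty vector (3 libraries, Ctrl_Corpus), and both groups were numbered 1 to 3. The labels give no strain or age, no promoter or species of the construct, and no origin of the 3 libraries in separate cultures or animals, so that p-values measure the spread between these libraries, which may be technical.

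Tight junctions close the space between neighbouring epithelial cells near their apical side. Claudins form the strands of the junction and set which ions pass between cells, some by sealing the space and some, such as claudin-2, by forming a channel for small cations and water. Occludin and JAM-A sit in the same membrane domain, and ZO-1 binds the tails of claudins and ties the strands to actin. Claudin-18 is the characteristic claudin of the stomach, where it limits the passage of acid between cells, and its stomach form is a target of antibody therapy in human gastric cancer.

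Total counts ran from 18735853 in control replicate 2 to 22767455 in overexpressing replicate 3. Erbb2 had 342, 349 and 285 CPM (counts per 1000000 scaled counts) in overexpressing replicates 1, 2 and 3, against 125, 164 and 128 CPM in control replicates 1, 2 and 3, so that the labels and the measured Erbb2 levels went together. The log2 fold change was 1.23 in both fits used here, with an adjusted p in edgeR of 3.47e-05 with the replicate block and 0.640 without it; DESeq2 called it without the block (adjusted p = 5.156e-09). The simple epithelial markers Epcam, Cdh1, Krt7, Krt8, Krt18 and Krt19 summed to between 8886 and 9932 CPM in overexpressing libraries and between 7790 and 9809 CPM in controls. Of 9 gastric corpus markers 7 were tested. The 9 summed to between 233.3 and 426.8 CPM in overexpressing libraries and between 157.2 and 270.8 CPM in controls, while the parietal marker Atp4b had 0 counts in all 6 libraries. With the block 1 of the 7 was called higher, where 2.37% of all genes tested were. It was Tff2, a secreted trefoil peptide (adjusted p = 0.00166 in edgeR, and 0.9997 without the block). Markers of fibroblasts summed to at most 1.70 CPM in any library and those of endothelium to at most 9.28 CPM, of which Tek made up 8.95 CPM in overexpressing replicate 3; Cldn5, the endothelial claudin, had 0 counts throughout. The immune list summed to 35.6, 18.6 and 73.4 CPM in overexpressing replicates 1, 2 and 3, against 24.4, 20.3 and 53.9 CPM in controls 1, 2 and 3, nearly all of it Cd68, with Adgre1 at 0 counts and Lyz2 and Cd3e at no more than 3 counts in any library.

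None of the 9 tested genes differed between the genotypes past the threshold over all genes, either in a fit of the group alone or in one that also took the replicate number as a block (edgeR's quasi-likelihood test, adjusted p under 0.05). Without the block 0% of all 12593 genes were called, so a count of 0 among the tight junction genes is no result about them; 419 of all genes, and 0 of the 9, had an unadjusted p under 0.05. With the block 3.09% of all genes were called, 2.37% higher and 0.723% lower, and 0 of the 9. In bulk RNA, fewer cells that express a gene and less of its RNA per cell cannot be told apart. At an unadjusted p under 0.05 with the block, 4 of the 9 lay higher in overexpressing organoids (Cldn2, Cldn3, Cldn18 and Tjp1), where 9.64% of all genes did. The median of the 9 was 0.17 on the log2 scale with the block, against -0.01 over all genes tested. DESeq2 without the block also called 0 of the 9, where it called 0.270% of all genes; with the block it called 2 higher, Cldn2 and Cldn18, where it called 3.77% of all genes in either direction and 3.00% higher.

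Within the list the genes other than Cldn23 fell into 2 kinds by how much they varied. Cldn18, Cldn2, Cldn3 and Cldn4 spread widely over the 6 libraries, with an SD of log2 CPM between 0.80 and 1.70, larger than that of at least 91.6% of all genes tested. Cldn7, Ocln, Tjp1 and F11r had an SD between 0.06 and 0.17 on the same scale, larger than that of at most 33.2% of all genes tested. Cldn23 lay between these kinds, with an SD of 0.54, larger than that of 82.6%. The wide spread had 2 parts. Overexpressing libraries lay above the control of the same number, except that Cldn4 was level in replicate 3 (ratio 1.01). Replicate 3 lay above replicates 1 and 2 in both genotypes.

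**Figure D1:**
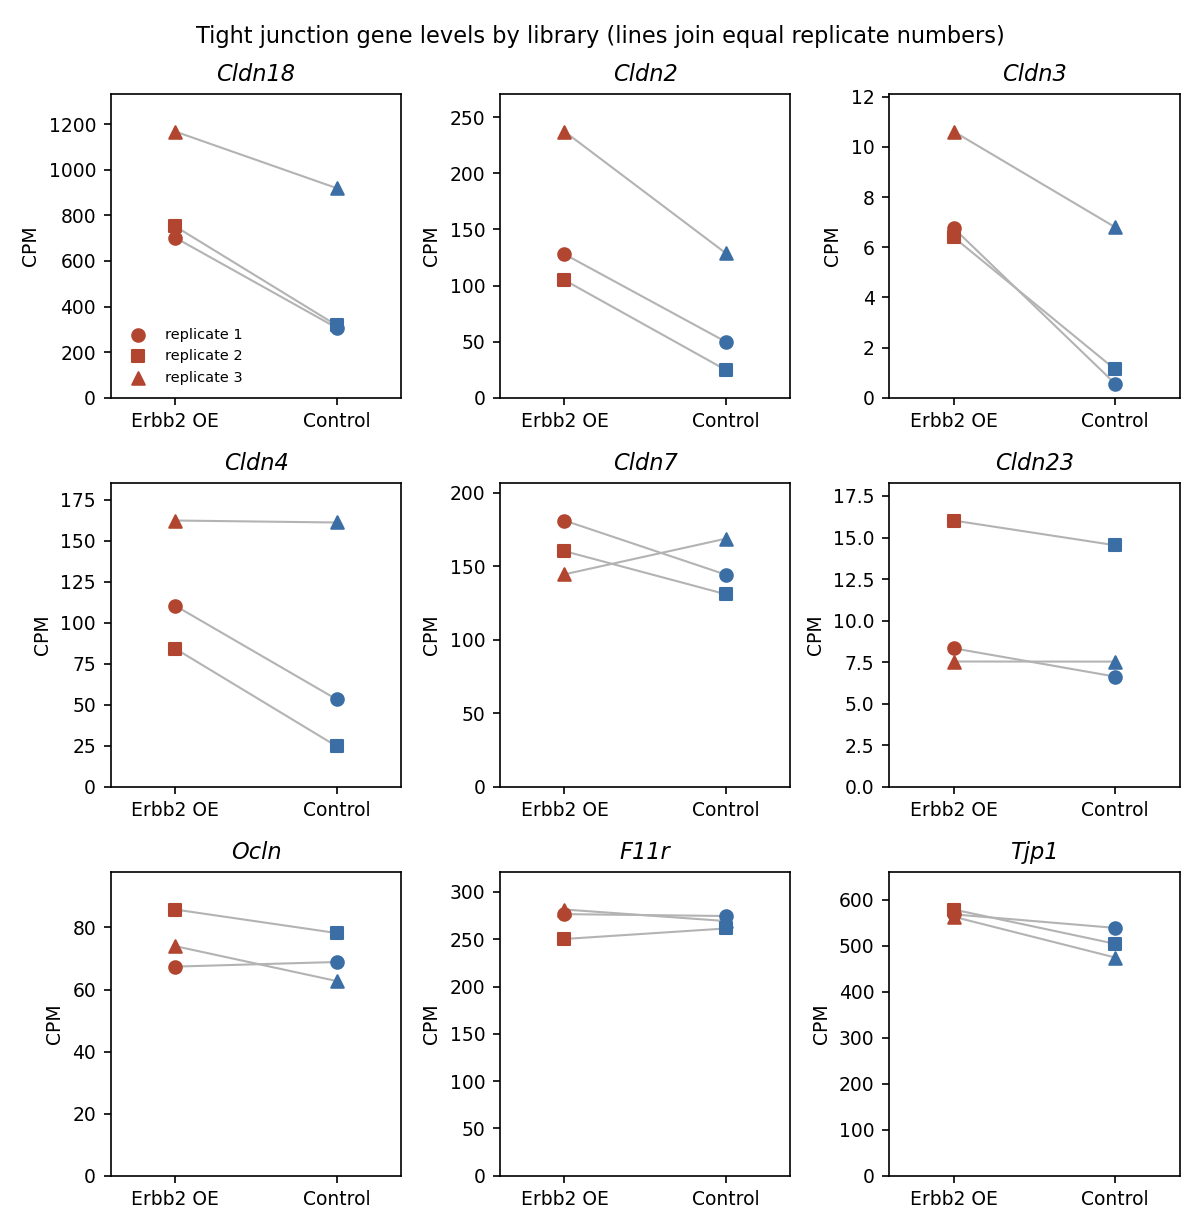
Level of each of the 9 tested genes in CPM (vertical axes, from 0) in Erbb2-overexpressing (left, red) and control (right, blue) libraries; each point is 1 library, marker shapes give the replicate number and lines join libraries of the same number. Cldn18, Cldn2 and Cldn3 slope down to the control in 3 of 3 pairs, and replicate 3 is the highest library of its genotype for these genes and for Cldn4.

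Cldn18 (ENSMUSG00000032473) had 702, 752 and 1168 CPM in overexpressing replicates 1, 2 and 3, against 307, 318 and 920 CPM in control replicates 1, 2 and 3. The groups overlapped, because control replicate 3 stood above overexpressing replicates 1 and 2, yet within each number the overexpressing library was the higher. The ratio was 2.29 in replicate 1, 2.37 in replicate 2 and 1.27 in replicate 3. Means were 874 ± 256 CPM in overexpressing organoids and 515 ± 351 CPM in controls (SD, n = 3 each). The log2 fold change was 0.76 (SE 0.46) without the block and 0.93 (SE 0.20) with it, with an adjusted p of 0.9997 without the block and 0.120 with it over all genes in edgeR.

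Cldn2 (ENSMUSG00000047230), the claudin of cation- and water-permeable junctions, had 128, 105 and 237 CPM in overexpressing replicates 1, 2 and 3, against 49.8, 24.7 and 129 CPM in controls 1, 2 and 3. It showed the same layout as Cldn18, with control replicate 3 level with overexpressing replicate 1. Within the numbers the ratio was 2.57, 4.24 and 1.84 for replicates 1, 2 and 3. The log2 fold change was 1.21 (SE 0.60, and edgeR's adjusted p was 0.9997) without the block and 1.40 (SE 0.26, and edgeR's adjusted p was 0.109) with it.

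Cldn3 (ENSMUSG00000070473), a sealing claudin, was far less abundant: its reads numbered 155, 113 and 255 in overexpressing replicates 1, 2 and 3 and 12, 20 and 158 in controls 1, 2 and 3. In CPM these were 6.76, 6.40 and 10.6 for the overexpressing libraries, against 0.556, 1.13 and 6.80 for the controls. Control replicates 1 and 2 were low and control replicate 3 lay within the range of the overexpressing group. The ratio within the numbers was 11.7 in replicate 1, 5.56 in replicate 2 and 1.56 in replicate 3. The fitted log2 fold change was 1.45 (SE 0.77, and edgeR's adjusted p was 0.9997) without the block and 1.57 (SE 0.49, and edgeR's adjusted p was 0.196) with it.

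Cldn4 (ENSMUSG00000047501), a claudin that binds Clostridium perfringens enterotoxin as claudin-3 does, had 110, 84.1 and 162 CPM in overexpressing replicates 1, 2 and 3, against 53.2, 24.6 and 161 CPM in controls 1, 2 and 3. Here the genotypes were level in replicate 3, with a ratio of 1.01, while the ratio was 2.07 in replicate 1 and 3.41 in replicate 2. The log2 fold change was 0.58 (SE 0.63, and edgeR's adjusted p was 0.9997) without the block and 0.88 (SE 0.47, and edgeR's adjusted p was 0.519) with it.

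The calls on these claudins changed with the pair left out. Without replicate 3 and with the block kept, 5 of the 9 genes were called higher in overexpressing organoids (edgeR), where 8.71% of all genes were called in either direction and 6.15% higher. Cldn18 then had a log2 fold change of 1.23 (SE 0.09), Cldn2 of 1.70 (SE 0.12), Cldn3 of 3.01 (SE 0.37), Cldn4 of 1.39 (SE 0.12) and Cldn7 of 0.32 (SE 0.09), and the largest of the 5 adjusted p-values was the 0.0109 of Cldn7. That fit has 4 libraries and 1 residual degree of freedom per gene, so its p-values rest mainly on the spread shared across genes. Without replicate 2 only Cldn2 was called (log2 fold change 1.13, adjusted p = 0.00135 in edgeR), where 1.15% of all genes were called in either direction and 0.958% higher, and without replicate 1 none of the 9 was called, where 1.69% were. With all 6 libraries the size of the genotype difference in replicate 3 against that in replicates 1 and 2 was not tested.

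**Figure D2:**
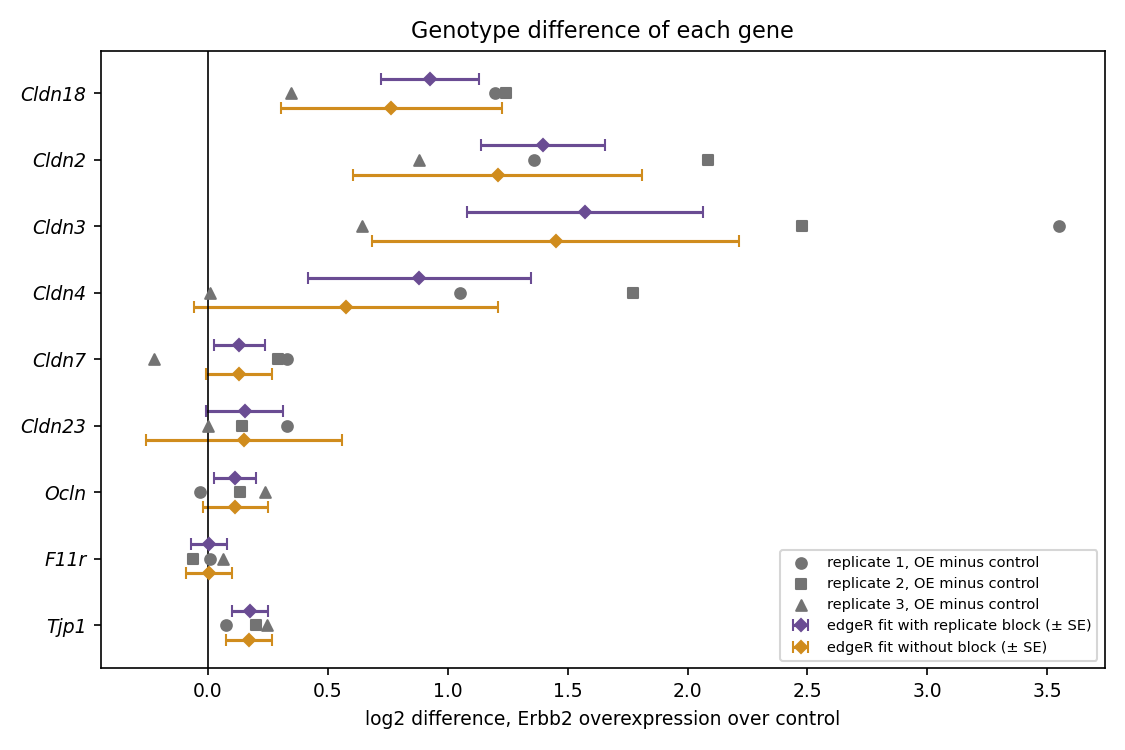
Log2 difference of Erbb2 overexpression over control (horizontal axis) for the 9 tested genes; grey markers are the differences within replicates 1, 2 and 3, and diamonds are edgeR fits with the replicate block (purple) and without it (orange), with bars of 1 SE. For Cldn18, Cldn2, Cldn3 and Cldn4 the triangle of replicate 3 lies nearest to 0, and the SE shrinks with the block for each of the 4.

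Replicate 3 exceeded the mean of replicates 1 and 2 (on the log2 scale) by a factor of 1.61 for Cldn18 in overexpressing organoids and 2.95 in controls. The factor was 2.05 in overexpressing organoids and 3.67 in controls for Cldn2, 1.61 and 8.34 for Cldn3, and 1.68 and 4.45 for Cldn4. For Tjp1 it was 0.982 in overexpressing organoids and 0.910 in controls, and for F11r 1.07 and 1.01. Over the 6 libraries, Pearson's r of log2 CPM among the 4 claudins lay between 0.824 (Cldn3 with Cldn4) and 0.967 (Cldn3 with Cldn18), while r of these 4 with Ocln, Tjp1 and F11r lay between -0.42 and 0.41 and r with Cldn7 between 0.54 and 0.67. For Cldn23, r with the 4 claudins lay between -0.51 (Cldn4) and -0.003 (Cldn3). These values describe 6 libraries that share replicate numbers and are given with no p. Some markers of particular cell types were also highest in replicate 3. The chief cell gene Cblif, for gastric intrinsic factor, had 3.62, 0.793 and 32.1 CPM in overexpressing replicates 1, 2 and 3, against 3.48, 1.86 and 38.2 CPM in controls 1, 2 and 3, and Gkn1, a surface mucous cell gene, had 0.349, 1.19 and 4.83 CPM in overexpressing libraries, against 0.0463, 0.394 and 2.41 CPM in controls. Both were far higher in replicate 3 of each genotype. No other tested gene of the gastric corpus list was highest in replicate 3 of both genotypes. Tff2 had 79.4, 175 and 59.2 CPM in overexpressing replicates 1, 2 and 3, against 34.2, 92.5 and 39.2 CPM in controls. Pgc had 59.1, 52.0 and 69.8 CPM in overexpressing replicates 1, 2 and 3, against 53.2, 97.3 and 87.6 CPM in controls. Tff1 had 85.0, 187 and 115 CPM in overexpressing libraries, against 62.8, 73.9 and 28.6 CPM in controls. Its groups did not overlap, where 4.27% of all genes lay wholly above in overexpressing organoids. With the block the adjusted p of Tff1 in edgeR was 0.325. The intestinal list (5 genes) summed to 177, 156 and 237 CPM in overexpressing replicates 1, 2 and 3, against 122, 93.3 and 226 CPM in controls 1, 2 and 3, with Cdx1 and Fabp1 at 0 counts throughout. Most of that sum was Vil1, a brush border gene, with 164, 150.1 and 221 CPM in overexpressing libraries and 114, 90.5 and 210.3 CPM in controls. The mucin gene Muc2 had 9.68, 3.74 and 10.99 CPM in overexpressing replicates 1, 2 and 3, against 7.97, 2.48 and 13.3 CPM in controls. Muc2 was thus highest in replicate 3 of both genotypes, and was higher with overexpression in replicates 1 and 2 and lower in replicate 3. Cdx2 is also on the intestinal list and is described further on. The squamous forestomach list (8 genes) summed to 895, 650 and 919 CPM in overexpressing libraries, against 558, 399 and 547 CPM in controls, nearly all of it Sprr1a and Krt4, with Trp63 at no more than 1 count and Krt14 at no more than 4. With the block, 2 of its 4 tested genes were called higher, where 2.37% of all genes were. These were the cornified envelope genes Sprr1a (adjusted p = 3.47e-05 in edgeR) and Ivl (adjusted p = 0.0191). Without the block both had an adjusted p of 0.9997. The part of these markers in the claudin levels was not tested.

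Among 10865 other genes whose log2 CPM averaged 1 or more, those whose 6 values followed Cldn18 most closely by Pearson's r were Pkdcc, a secreted protein kinase gene (r = 0.998), Acp5, the tartrate-resistant acid phosphatase gene (r = 0.996), and Plcg2, a phospholipase C gene (r = 0.993). Of these Acp5 was called higher with the block (log2 fold change 0.81, adjusted p = 0.0125 in edgeR, and 0.9997 without it). Pkdcc had 6.11, 6.34 and 8.99 CPM in overexpressing replicates 1, 2 and 3, against 3.48, 3.77 and 7.49 CPM in controls 1, 2 and 3. In the same ranking Cldn3 stood at place 54, Cldn2 at place 160 and Cldn4 at place 291.

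Because these 4 claudins varied together, the 250 bases before their annotated starts are shown (RefSeq, GRCm38.p6; coordinates are of that assembly, while the counts were made on GRCm39). Cldn18 has separate first exons in lung and stomach, and RefSeq gives it 2 starts 7.20 kilobases apart on chromosome 9; counts per gene do not say which of them the reads came from. Cldn4 and Cldn3 are neighbours on chromosome 5, with starts 39.3 kilobases apart on opposite strands. The windows are chr9:99717268-99717517 (minus strand) and chr9:99710064-99710313 (minus) for Cldn18, chrX:139800558-139800807 (plus) for Cldn2, chr5:134985964-134986213 (plus) for Cldn3 and chr5:134946935-134947184 (minus) for Cldn4. Capitals mark matches to TGANTCA, the site of AP-1 factors, or to CAGGTG, an E-box bound by Snail repressors, on either strand; TTTATNG, a CDX site, and AACNGGTT, a Grainyhead-like site, were searched too and had no match in these windows, and none of the marked matches overlap.
Cldn18, upstream start: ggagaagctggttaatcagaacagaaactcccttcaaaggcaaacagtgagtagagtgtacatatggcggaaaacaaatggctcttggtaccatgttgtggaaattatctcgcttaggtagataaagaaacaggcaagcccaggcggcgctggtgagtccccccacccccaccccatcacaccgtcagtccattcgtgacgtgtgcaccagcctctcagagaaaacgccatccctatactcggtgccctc
Cldn18, downstream start: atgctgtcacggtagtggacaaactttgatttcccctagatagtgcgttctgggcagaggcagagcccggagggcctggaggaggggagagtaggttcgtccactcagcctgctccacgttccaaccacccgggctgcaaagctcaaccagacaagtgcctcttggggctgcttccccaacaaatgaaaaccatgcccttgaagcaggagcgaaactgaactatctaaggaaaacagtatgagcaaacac
Cldn2: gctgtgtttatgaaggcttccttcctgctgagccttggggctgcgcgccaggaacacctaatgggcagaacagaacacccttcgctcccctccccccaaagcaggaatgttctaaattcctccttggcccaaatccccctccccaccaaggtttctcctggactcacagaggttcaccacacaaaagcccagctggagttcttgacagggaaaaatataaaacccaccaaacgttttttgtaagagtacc
Cldn3: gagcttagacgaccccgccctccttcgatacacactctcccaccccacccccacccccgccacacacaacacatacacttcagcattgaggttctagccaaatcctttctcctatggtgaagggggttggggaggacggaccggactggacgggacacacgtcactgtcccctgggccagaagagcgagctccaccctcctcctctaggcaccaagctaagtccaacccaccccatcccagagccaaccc
Cldn4: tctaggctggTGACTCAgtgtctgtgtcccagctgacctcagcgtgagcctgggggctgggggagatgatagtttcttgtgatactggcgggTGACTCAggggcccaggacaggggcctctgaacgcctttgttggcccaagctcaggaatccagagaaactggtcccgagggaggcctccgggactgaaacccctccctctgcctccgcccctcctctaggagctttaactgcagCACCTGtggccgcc
The Cldn4 window holds TGANTCA at 2 places, starting 240 and 158 bases before the start, and the E-box on the opposite strand at 14 bases before it; the other windows shown hold none of the 4 motifs. Of all 32851 mouse promoter windows of the same length, 6.75% hold TGANTCA, 17.2% CAGGTG, 9.81% TTTATNG and 1.79% AACNGGTT. Of the list, 9 genes with 12 windows had an entry. Outside the 4 claudins, F11r holds both TGANTCA and CAGGTG, and 1 of 2 windows each of Cldn7 and Ocln holds CAGGTG. These are matches of letters and not measured sites, and the 4 claudins that varied together had no motif of the 4 in common in these windows.

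The remaining claudins of the list had small differences or few reads. Cldn7 (ENSMUSG00000018569), a claudin of the lateral membrane that binds EpCAM, had 181, 160 and 145 CPM in overexpressing replicates 1, 2 and 3, against 144, 131 and 169 CPM in controls 1, 2 and 3. It lay higher in replicates 1 and 2 and lower in replicate 3, with a log2 fold change of 0.13 (SE 0.14, and edgeR's adjusted p was 0.9997). Cldn23 (ENSMUSG00000055976) had 8.33, 16.0 and 7.54 CPM in overexpressing replicates 1, 2 and 3, against 6.63, 14.5 and 7.53 CPM in controls 1, 2 and 3. Its level followed the replicate number, highest in replicate 2 of both genotypes, and its log2 fold change was 0.15 (SE 0.41, and edgeR's adjusted p was 0.9997); it was -0.26 without overexpressing replicate 2 and -0.06 without control replicate 1. Cldn1 (ENSMUSG00000022512), a sealing claudin known from skin and many other epithelia, had 0, 0 and 4 reads in overexpressing replicates 1, 2 and 3 and 0 in each control. A count of 0 allows up to 3 reads, or 0.170 CPM in overexpressing replicate 2, and no difference could be assessed at this depth.

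The non-claudin genes varied little between libraries. Occludin (Ocln, ENSMUSG00000021638), a tetraspan protein of the strands, had 67.4, 85.8 and 74.0 CPM in overexpressing replicates 1, 2 and 3, against 68.9, 78.2 and 62.7 CPM in controls 1, 2 and 3. The groups overlapped, with a log2 fold change of 0.11 (SE 0.14, and edgeR's adjusted p was 0.9997). JAM-A (F11r, ENSMUSG00000038235), an immunoglobulin-like adhesion molecule, had 277, 250 and 281 CPM in overexpressing libraries and 275, 261 and 269 CPM in controls. Its log2 fold change was 0.01 (SE 0.09), and its SD over the 6 libraries was among the lowest 1.68% of all genes tested. Tjp1 (ENSMUSG00000030516), the ZO-1 scaffold gene, had 568, 578 and 563 CPM in overexpressing replicates 1, 2 and 3, against 538, 504 and 474 CPM in controls 1, 2 and 3. It was the single tested member whose groups did not overlap, where 4.27% of all genes lay wholly above in overexpressing organoids, and the difference was small, with a log2 fold change of 0.17 (SE 0.10, and edgeR's adjusted p was 0.9997) or, with the block, 0.17 (SE 0.08, and edgeR's adjusted p was 0.264). By sign alone, 6 of the 9 lay higher in overexpressing organoids in 3 of 3 pairs (Cldn2, Cldn3, Cldn4, Cldn18, Cldn23 and Tjp1), where 19.6% of all genes did, and 0 lay lower in all pairs, where 19.2% did; for Cldn4 and Cldn23 the ratio in replicate 3 was close to 1.

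Levels between genes were compared per kilobase of annotated exon. Cldn18 had the highest mean of the list, at 196 ± 57.4 CPM per kilobase in overexpressing organoids and 116 ± 78.8 in controls (SD, n = 3 each), its mean over the 6 libraries lying above that of 97.7% of all genes tested. In controls 1 and 2, at 68.8 and 71.3 CPM per kilobase, it lay below F11r (109 and 104) and Cldn7 (97.7 and 88.7), and the control mean was raised by replicate 3, at 206. F11r, Cldn7 and Tjp1 followed with means over the 6 libraries of 107, 105 and 75.6 CPM per kilobase, then Cldn4 with 54.7, Cldn2 with 36.9, Ocln with 17.2, Cldn23 with 5.46 and Cldn3 with 4.27. The last pair changed places with genotype, Cldn3 averaging 6.29 and Cldn23 5.75 CPM per kilobase in overexpressing organoids, against 2.25 and 5.17 in controls. Cldn18 could not be set apart from F11r, since its libraries ranged from 68.8 to 262 CPM per kilobase and those of F11r from 99.4 to 112, and Cldn7, at 88.7 to 123, overlapped F11r. The steps from Cldn7 to Tjp1 (66.7 to 81.4) and from Ocln (14.9 to 20.3) to Cldn23 (3.59 to 8.67) separated all libraries. Cldn4, at 13.6 to 89.3, overlapped its neighbours Tjp1 and Cldn2, Cldn2, at 8.11 to 78.0, overlapped Ocln, and Cldn3, at 0.442 to 8.43, overlapped Cldn23.

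**Figure D3:**
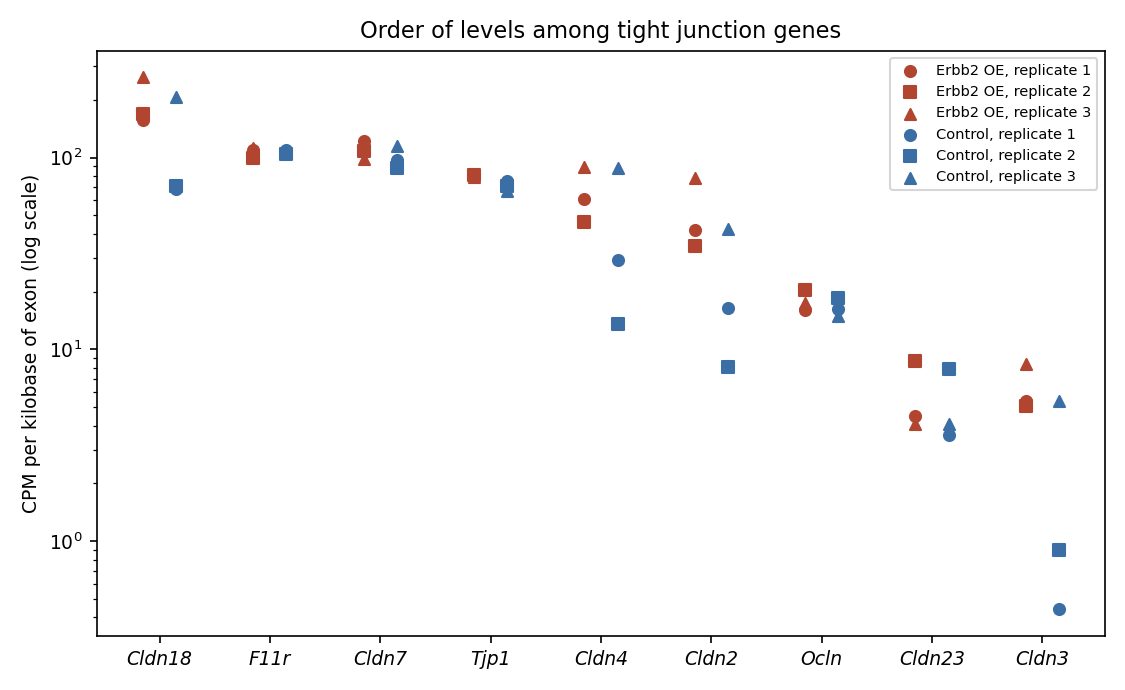
Level of the 9 tested genes in CPM per kilobase of exon (vertical log axis), ordered by the mean of the 6 libraries; red points are Erbb2-overexpressing and blue points control libraries, with marker shapes for replicates 1, 2 and 3. Cldn18 has the highest mean and runs from 68.8 to 262 CPM per kilobase, and Cldn3 spans from 0.442 to 8.43.

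Further lists of junction genes were read from the same fits, and 0 of their tested genes were called without the block, where 0% of all genes were. With the block 3.09% of all genes were called, so a count of 0 in lists this short is no result about them. Of 17 other claudins, 15 had an entry in the tables, 2 were tested and 0 were called with the block. Cldn8, a claudin of tight epithelia such as the distal nephron, had 26, 26 and 19 reads in overexpressing replicates 1, 2 and 3 and 68, 52 and 51 in controls 1, 2 and 3. It lay below the controls without overlap, where 4.48% of all genes did, with a log2 fold change of -1.31 (SE 0.33, and edgeR's adjusted p was 0.0526) with the block. With the block, leaving out replicate 1 gave an adjusted p of 0.244, replicate 2 one of 0.163 and replicate 3 one of 0.0313, and DESeq2 with the block gave 0.116. Cldn12, a claudin lacking the usual tail motif for binding ZO proteins, stood at 108 ± 9.39 CPM in overexpressing organoids and 105 ± 10.8 CPM in controls (SD, n = 3 each), and its log2 fold change was 0.05 with the block (adjusted p = 0.825 in edgeR). Cldn6, chosen after its values were seen, had 0, 0 and 140 reads in overexpressing replicates 1, 2 and 3 and 0, 0 and 34 in controls 1, 2 and 3, so that its reads came from replicate 3 of both genotypes; it was not tested. Cldn5, Cldn11, Cldn13, Cldn14, Cldn16, Cldn17 and Cldn24 had 0 reads in each library.

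Of 12 other tight junction membrane proteins 10 were tested and 0 were called with the block. Cxadr, the coxsackievirus and adenovirus receptor, stood at 394 ± 107 CPM in overexpressing organoids and 470 ± 151 CPM in controls, and was the lower in overexpressing libraries in 3 of 3 pairs (log2 fold change -0.24, adjusted p = 0.120 with the block in edgeR). Marveld3, a relative of occludin, differed by 0.44 on the log2 scale (adjusted p = 0.137 with the block), Clmp, an adhesion molecule related to Cxadr, by 1.57 at no more than 37 reads per library (adjusted p = 0.152), and Crb3, a polarity protein of the apical membrane, by -0.13 (adjusted p = 0.690). Of 24 scaffold and polarity genes all were tested and 0 were called, with a median log2 fold change of 0.02 with the block, against -0.01 over all genes. Mpdz, a scaffold with many PDZ domains, had 8.07, 5.10 and 6.08 CPM in overexpressing replicates 1, 2 and 3, against 12.9, 8.11 and 8.91 CPM in controls 1, 2 and 3, just without overlap. Its log2 fold change was -0.63 (SE 0.17, and edgeR's adjusted p with the block was 0.0695). Leaving out replicate 1 gave an adjusted p of 0.308, replicate 2 one of 0.279 and replicate 3 one of 0.0275. Amotl2, Pard6b and Afdn, which encode an angiomotin, a partner of atypical protein kinase C and the scaffold afadin, had log2 fold changes of 0.25, 0.20 and 0.14 with the block (adjusted p = 0.148, 0.246 and 0.376).

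Of 15 junctional actomyosin regulators and 10 claudin and occludin partners, all were tested and 0 were called with the block. Arhgef18, an activator of RhoA at junctions, differed by 0.21 on the log2 scale (adjusted p = 0.243 with the block in edgeR), the myosin heavy chains Myh9 and Myh14 had 0.13 each, and Mylk, the myosin light chain kinase, had 1.67 at no more than 31 reads per library (adjusted p = 0.258). Epha2, a receptor kinase whose human form phosphorylates claudin-4, had 251, 187 and 339 CPM in overexpressing replicates 1, 2 and 3, against 206, 160 and 262 CPM in controls 1, 2 and 3. It lay higher in 3 of 3 pairs, with a log2 fold change of 0.30 (SE 0.08, and edgeR's adjusted p with the block was 0.0555). Epha2 passed the threshold with the block in DESeq2 (adjusted p = 0.0254), in limma voom (0.0450) and in edgeR without replicate 3 (0.0426), but not in edgeR without replicate 1 (0.164) or replicate 2 (0.238). Epcam, Prss8 and Marchf3, for the partner of claudin-7, a membrane protease and a ubiquitin ligase, had log2 fold changes of -0.10, -0.13 and -0.45 (adjusted p = 0.651, 0.515 and 0.540).

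Of 16 transcription factors known for regulating junction genes 13 were tested, and with the block 1 was called, where 3.09% of all genes were. Cdx2, an intestinal factor that acts on the claudin-2 promoter in human cells, had 73, 43 and 124 reads in overexpressing replicates 1, 2 and 3 and 6, 5 and 55 in controls 1, 2 and 3, or 3.18, 2.43 and 5.16 CPM against 0.278, 0.282 and 2.37 CPM. With the block it rose, by 1.87 on the log2 scale (SE 0.40, and edgeR's adjusted p was 0.0274), against an adjusted p of 0.9997 without the block. Without replicate 1 or replicate 2 it missed the threshold (log2 fold change 1.53 and 1.73, adjusted p = 0.111 and 0.0927), and without replicate 3 the value was 3.33 (SE 0.59). Like Cldn2, Cldn3, Cldn4 and Cldn18, Cdx2 was highest in replicate 3 of each genotype. Grhl3, an epithelial barrier factor, had 4.88, 5.83 and 10.3 CPM in overexpressing replicates 1, 2 and 3, against 1.48, 2.20 and 9.68 CPM in controls 1, 2 and 3, with a log2 fold change of 0.74 (SE 0.30, and edgeR's adjusted p with the block was 0.243), which was 0.54 (adjusted p = 0.529) without replicate 1, 0.62 (0.577) without replicate 2 and 1.56 (0.000133) without replicate 3. The epithelial repressors Ovol1 and Ovol2 had log2 fold changes of 0.67 and -0.55 (adjusted p = 0.210 and 0.0635). For Ovol2, leaving out replicate 1 gave an adjusted p of 0.344, replicate 2 one of 0.193 and replicate 3 one of 0.0151. Snai1 and Snai2, the Snail repressors, had at most 7 and 5 reads in any library, and Zeb2 had 0.

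**Figure D4:**
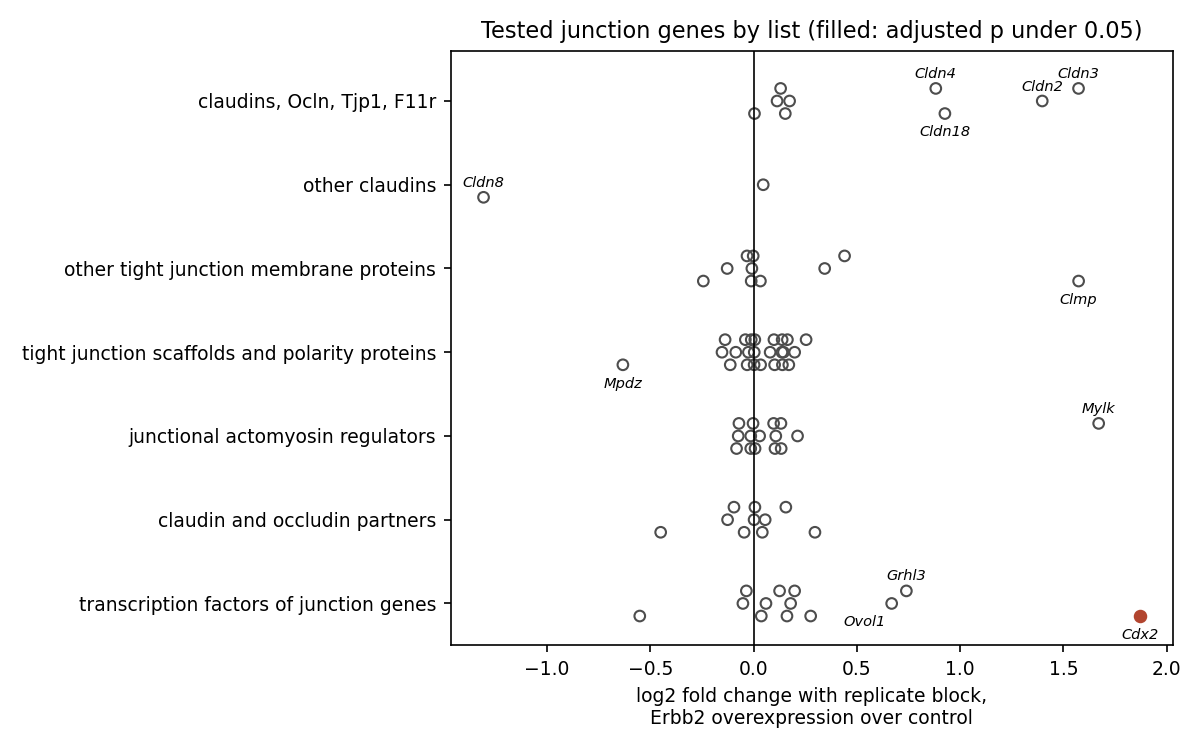
Log2 fold change of Erbb2 overexpression over control with the replicate block (horizontal axis) for each tested gene of the 7 lists (rows; vertical offsets within a row only separate points). The filled point is Cdx2, called at an adjusted p under 0.05, and scaffold genes other than Mpdz lie between -0.15 and 0.25.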

How the data were processed

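The authors deposited raw read counts per Ensembl gene, in 1 table for each library of polyA RNA. The submitters' processing notes name STAR, featureCounts and GRCm39; versions, annotation and the strand setting were not given in the sources used here, so reads of antisense neighbours may be mixed. Symbols matched 25424 IDs; the 104 others held at most 0.219% of counts. Libraries of a group were not identical (chi-square of at least 33.5 per degree of freedom).

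Genes were kept by filterByExpr (minimum count 10), scaled by TMM and tested with edgeR 4.0.16 (R 4.3.3) over all genes, group alone, two-sided, Benjamini-Hochberg threshold 0.05; SE is the log2 fold change over the square root of F. Same-numbered libraries deviated together, with r of 0.299, 0.619 and 0.675 across genes for replicates 1, 2 and 3. Among the controls, each overexpressing library matched that of its own number best. For this reason the fit with the number as a block is given beside results. The labels give the numbers and no meaning for them. Differences within a number add 0.5 to each count. Exon lengths came from GENCODE M21 (GRCm38) by gene ID. Floors cover counting error alone. Alternatives were other scalings, DESeq2 1.42.0, limma 3.58.1 voom, other filters, libraries and pairs left out, and mitochondrial genes with Erbb2 removed. Fits were tested on simulated data in which a gene's genotype difference was the same in every replicate number. Differences that change with the number, as seen for Cldn3, were not simulated. The genes and lists were chosen with earlier results of these data known; from each further list the called genes and then those with the smallest p with the block, to 4, are named.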

Additional observations from a re-analysis of the deposited data

How the results depend on the processing

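Over all genes the number called was 0 with the group alone, also with relative log expression or upper-quartile scaling, with limma voom, without a filter, with one of 1 CPM in 3 libraries, or with mitochondrial genes and Erbb2 removed; 34 were called with DESeq2, and between 0 and 1 with a library left out. With the replicate block 389 were called by edgeR, 466 by DESeq2, 417 by limma voom, 395 with relative log expression scaling and 345 with no filter, and 213, 146 and 1089 without replicate 1, 2 and 3. Of the tight junction genes 0 were called with the block, 2 (Cldn2 and Cldn18) with the block in DESeq2, and between 0 and 5 with the block and a pair left out; the cause was not tested. Leaving out libraries changed the sign of small log2 fold changes: F11r lay between -0.027 and 0.054 (with the block and a pair left out the lowest was -0.020, without replicate 3), Cldn23 between -0.26 and 0.57, Cldn12 between -0.030 and 0.12, Cxadr between -0.47 and 0.028, Prss8 between -0.26 and 0.056, Marchf3 between -0.75 and 0.083 and, with the block, Epcam between -0.16 and 0.034. With the group alone and a library left out, Cldn18 lay between 0.50 and 1.49, Cldn2 between 0.78 and 2.08, Cldn3 between 0.96 and 3.28 and Cldn4 between 0.15 and 1.62, each with the highest value without control replicate 3. Of the genes named, the replicate block changed the edgeR call of Erbb2 (adjusted p = 3.47e-05 with it), Cdx2, Tff2, Sprr1a, Ivl and Acp5, and of none of the tight junction genes. At this depth Cldn1, with at most 4 reads in a library, and 7 other claudins, at 0 reads, could not be assessed. Of the 17 other claudins 15 were not tested, for few reads or for want of an entry.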
